A study of Homo sapiens with 10 samples.

Results

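Respiratory complex I genes of the nuclear genome were examined in human cardiomyocytes treated with an antisense oligonucleotide against an RNA named CLIPPER. The members are 49 of the 78932 gene identifiers counted. They are the protein-coding genes whose GENCODE symbols follow the NDUFS, NDUFV, NDUFA, NDUFAB, NDUFB, NDUFC and NDUFAF patterns, without NDUFA4 and NDUFA4L2, together with the assembly factors TIMMDC1, FOXRED1, NUBPL and TMEM126B. Of the 49, 37 encode subunits and 12 encode assembly factors.

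The cells were cardiomyocytes made by directed differentiation of H1 cells, an established line of human embryonic stem cells. On day 9 of differentiation, beating cultures received 50 nM of a GapmeR delivered by lipid transfection, and RNA was taken 48 h later. A GapmeR is a short antisense oligonucleotide with a DNA core that directs RNase H to cut the RNA it binds. The control group (5 libraries) received a control GapmeR and the knockdown group (5 libraries) the CLIPPER GapmeR; the labels name 1 line, no further treatment and no genotype change. All 10 libraries hold total RNA depleted of ribosomal RNA and read in bulk, with 32.9 to 45.1 in units of 1e6 counts per library.

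Complex I, or NADH:ubiquinone oxidoreductase, takes electrons from NADH, passes them along a chain of iron-sulfur clusters to ubiquinone, and pumps protons across the inner mitochondrial membrane. Its matrix arm holds the NADH-binding N module and the quinone-reducing Q module, and its membrane arm holds the proton-pumping subunits, which the mitochondrial genome encodes. The nuclear subunits are made in the cytosol, imported and joined module by module with the help of assembly factors that are absent from the finished enzyme. Heart muscle cells are rich in mitochondria and draw most of their ATP from this chain.

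Values are normalised counts per 1e6 counts (CPM), scaled by the trimmed mean of M-values. A fold change is thus set against the average gene, and says nothing of the RNA content of a cell. Differences were tested with edgeR's quasi-likelihood F test, with Benjamini-Hochberg adjustment over 21033 genes and a threshold of 0.05. "Higher" or "lower" means past that threshold, and "no overlap" means that every knockdown library lay on one side of every control library. All 49 members passed the filter on low counts, with 2987 to 104296 counts each over the 10 libraries. The summed level of the 8 cardiomyocyte markers was 25801 to 33584 CPM in the control and 10192 to 15031 CPM in the knockdown, with 7 of the 8 lower, so the labelled cell type was present in both groups. In bulk RNA, fewer cells of a type and less RNA per cell cannot be told apart, and the part of cell composition in the results below was not tested. The labels do not say whether replicates were separate cultures, so the p-values cover the spread between these 10 samples, which may be technical.

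Of the 49 members 24 were higher and 12 lower in the knockdown, and 13 did not pass. Over all tested genes 79.7% passed in either direction, 40.1% as higher and 39.6% as lower, so the share of members that changed was close to the background. In 30 members the groups did not overlap, 21 of them higher and 9 lower, against 67.5% of all tested genes without overlap. At least 2-fold changes were found in 4 members that rose and 4 that fell, where 24.3% of all tested genes rose and 24.2% fell by that much. The median log2 fold change of the members was 0.25, beside 0.01 for all tested genes and -0.22 for tested coding genes. Without knockdown replicates 1 and 2, which lay apart from the other knockdown libraries in many members, 30 were higher and 12 lower. These 2 libraries were picked with their values known, so that count is a description. Under upper-quartile scaling, which moved the median of all tested genes to 0.20, 33 were higher and 11 lower.

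**Figure D1:**
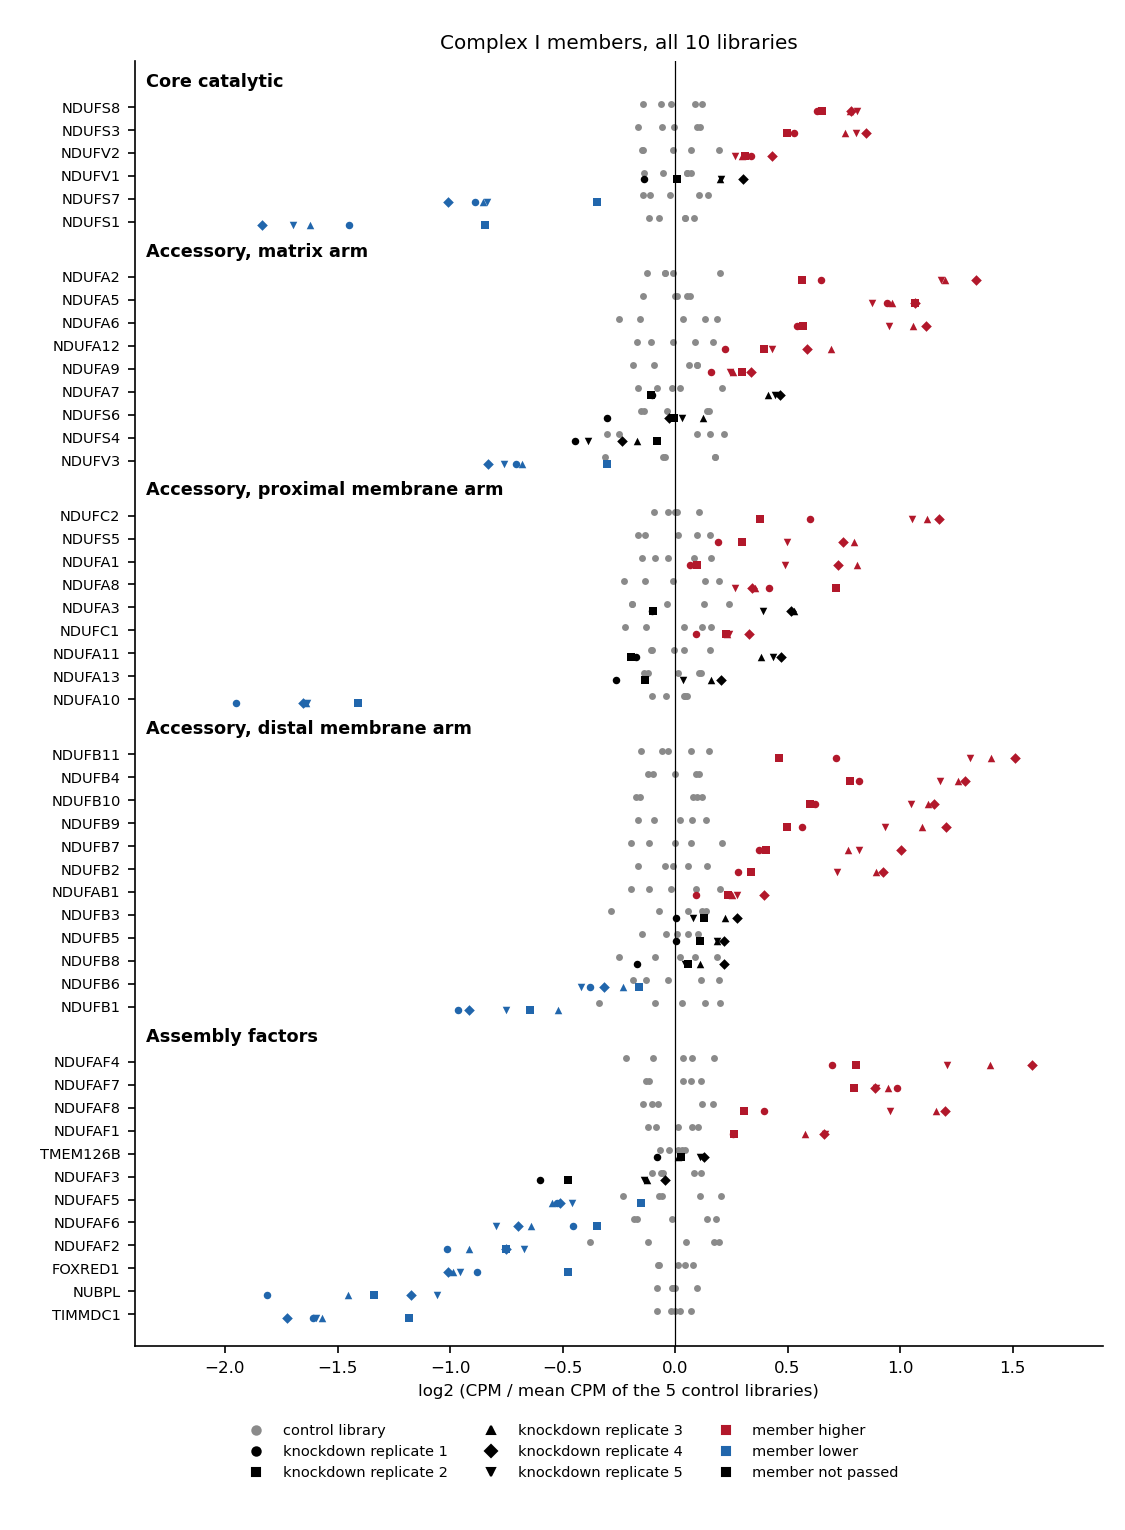
Members in every library (1 of the 49 is not drawn), as log2 of CPM over the mean of the 5 control libraries (x axis), grouped by role. Grey points are control libraries, the 5 marker shapes are knockdown replicates 1 to 5, and colour gives the call. Each role holds members called higher and members called lower, from NDUFA10 at a log2 fold change of -1.65 to NDUFAF4 at 1.18.

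The 7 core subunits carry the flavin and the iron-sulfur clusters, and their transcripts separated: NDUFV2, NDUFS3 and NDUFS8 rose, NDUFS1 and NDUFS7 fell, and 2, among them NDUFV1, did not pass. Their median log2 fold change was 0.16. NDUFS1 (ENSG00000023228, chr2:206114817-206159509 on GRCh38, minus strand) is the largest subunit and carries several iron-sulfur clusters of the N module. It stood at 269, 276, 240.2, 269 and 248 CPM in control replicates 1 to 5 and at 95.4, 145, 84.5, 73.0 and 80.2 CPM in knockdown replicates 1 to 5. Every knockdown library was below every control library, with replicate 2 the highest of the knockdown. The fall was 2.72-fold (log2 fold change -1.45 ± 0.167 SE, adjusted p = 5.92e-06). NDUFS7 (ENSG00000115286, chr19:1383527-1395589, plus strand), which holds the last cluster before ubiquinone, was at 76.6, 78.9, 64.5, 70.1 and 65.9 CPM in the control and 38.5, 56.0, 39.4, 35.4 and 39.9 CPM in the knockdown. The groups again did not overlap, and knockdown replicate 2 again lay nearest to the control. NDUFS7 fell 1.70-fold (log2 fold change -0.77 ± 0.123 SE, adjusted p = 9.5e-05).

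The core subunits NDUFS8, NDUFS3 and NDUFV2 went the other way. NDUFS8 (ENSG00000110717, chr11:68030617-68036644, plus strand), whose clusters hand electrons to NDUFS7, was at 66.4, 65.0, 55.4, 60.4 and 58.5 CPM in the control and 94.5, 96.1, 105, 105 and 107 CPM in the knockdown. All 5 knockdown libraries exceeded all 5 controls, a 1.66-fold rise (log2 fold change 0.73 ± 0.0797 SE, adjusted p = 3.47e-06). NDUFS3 (ENSG00000213619, chr11:47565336-47584562, plus strand), a structural core of the Q module, was at 81.4, 82.1, 75.8, 73.0 and 68.0 CPM in the control and 109.6, 107, 129, 137 and 133 CPM in the knockdown. Its groups did not overlap, the 2 lowest knockdown libraries being replicates 1 and 2, and it rose 1.62-fold (log2 fold change 0.69 ± 0.0959 SE, adjusted p = 2.64e-05). Its annotated exons share 16% of their bases with PTPMT1 on the same strand, so its counts are uncertain. NDUFV2 (ENSG00000178127, chr18:9102630-9134345, plus strand), the small cluster-bearing partner of NDUFV1, was at 96.5, 88.7, 76.2, 83.7 and 76.4 CPM in the control and 106, 105, 104, 113 and 101 CPM in the knockdown. The lowest knockdown library was still above the highest control, for a 1.26-fold rise (log2 fold change 0.33 ± 0.0853 SE, adjusted p = 0.00333).

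NDUFV1 (ENSG00000167792, chr11:67605653-67612554, plus strand) binds the flavin that oxidises NADH, and stood at 232, 229.9, 213, 229.9 and 201 CPM in the control and 201, 223, 254, 273 and 255 CPM in the knockdown. The groups overlapped and the difference did not pass (log2 fold change 0.12 ± 0.101 SE, adjusted p = 0.267). Knockdown replicates 3, 4 and 5 were above every control, replicate 2 was within the control range and replicate 1, at 201.06 CPM, was just below the lowest control at 201.28 CPM. With those 2 libraries left out NDUFV1 was higher at a log2 fold change of 0.23 (adjusted p = 0.0065). That removal was chosen with the values known and takes out the 2 libraries that did not rise above the control. The call is thus a description and no support for a rise.

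**Figure D2:**
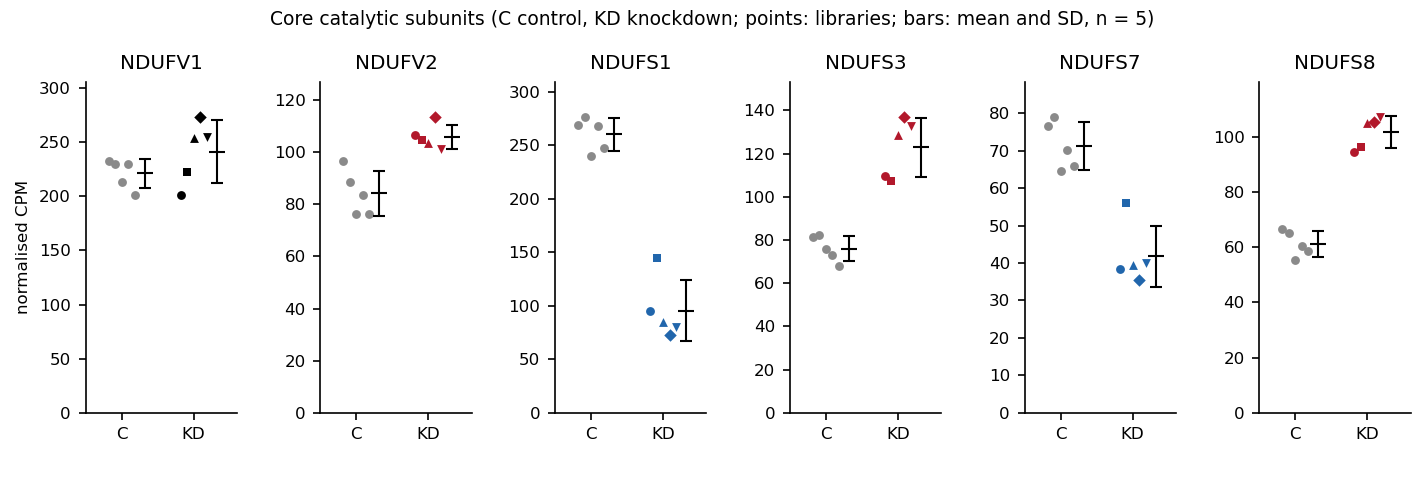
Normalised CPM of 6 of the 7 core subunits (y axes from 0, a scale of its own for each gene) in control (C) and knockdown (KD) libraries, with the mean and SD of 5 libraries beside the points. The knockdown points of NDUFS1 and NDUFS7 lie below the controls, those of NDUFV2, NDUFS3 and NDUFS8 above them, and those of NDUFV1 overlap them; colours and shapes are as in the plot of all members.

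Within a single library the ratio of 2 genes does not depend on the scaling between libraries, and these pairs were chosen after the members' values were seen, so their separation is a description. Counts of NDUFS8 over NDUFS7 were 0.823 to 0.887 in the control and 1.72 to 2.97 in the knockdown. The ratio of NDUFS3 to NDUFS1 went from 0.272 to 0.316 in the control to 0.741 to 1.88 in the knockdown, and that of NDUFV2 to NDUFS1 from 0.308 to 0.359 to 0.723 to 1.56. Each of these ratios was higher in every knockdown library than in any control, and the order between the genes of the NDUFS8 and NDUFS7 pair turned over in raw counts in all 5 knockdown libraries.

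**Figure D3:**
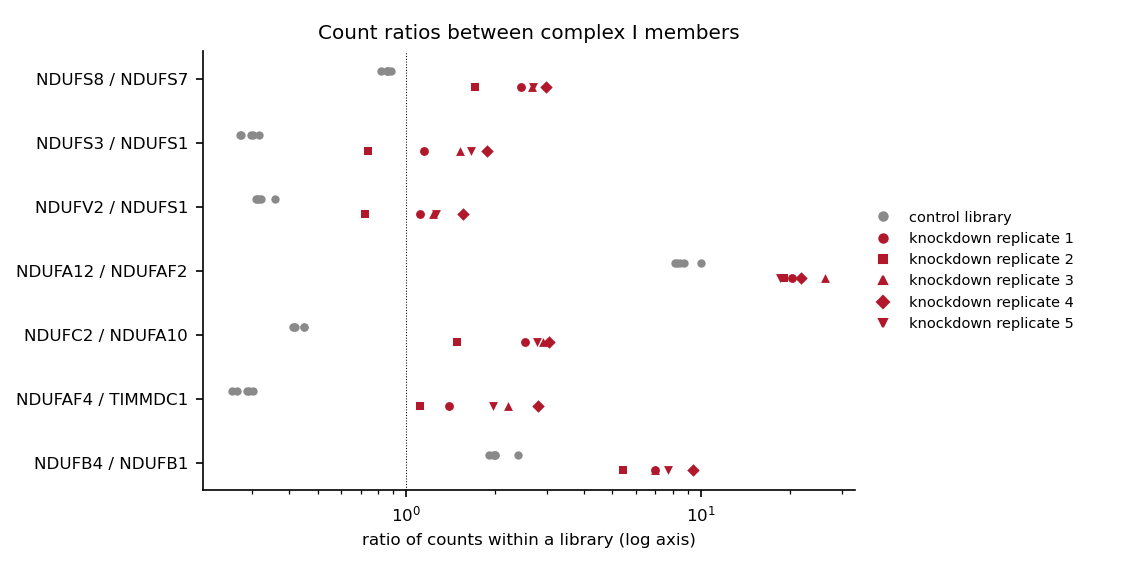
Ratio of raw counts between 2 members within each library (x axis, log scale), for 7 pairs chosen after the values were seen. Control libraries are grey and knockdown libraries red, with a shape per replicate; no pair overlaps between the groups, and knockdown replicate 2 gives the lowest knockdown ratio in 6 of the 7 pairs.

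Promoter letters were read for the members that carry these opposite changes, since a shared motif in genes that moved apart is directly visible in them. RefSeq's table of promoters on GRCh38.p14, which covers 250 bases before to 50 bases after each start, matched 42 of the 49 members. Of each member's promoters the one nearest the start of its canonical transcript was taken. Each was searched on both strands for 3 motifs known from promoters of respiratory chain genes: the NRF1 motif (GCGCA, any base, then GCGC), the ETS family motif (CCGGAAG), bound by GABPA among others, and the YY1 motif (AAGATGGC). At least 1 of the 3 was found in 20 member promoters. A match is a description of letters and not a site; matches of different motifs did not overlap, and in NDUFA8 matches of the NRF1 motif overlapped each other. The ETS motif stands in capitals in these windows of 100 bases, NDUFS1 and TIMMDC1 being members that fell and NDUFAF4 and NDUFS3 members that rose; CTTCCGG is the same motif on the other strand.
NDUFS1 (chr2:206159517-206159616, minus strand): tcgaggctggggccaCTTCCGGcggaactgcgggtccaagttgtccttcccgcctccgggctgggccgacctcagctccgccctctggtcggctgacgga
TIMMDC1 (chr3:119498410-119498509, plus strand): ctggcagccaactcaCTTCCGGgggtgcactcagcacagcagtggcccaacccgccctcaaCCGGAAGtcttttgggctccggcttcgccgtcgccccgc
NDUFAF4 (chr6:96897954-96898053, minus strand): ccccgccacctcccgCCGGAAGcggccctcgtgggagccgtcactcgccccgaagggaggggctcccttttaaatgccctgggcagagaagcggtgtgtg
NDUFS3 (chr11:47578957-47579056, plus strand): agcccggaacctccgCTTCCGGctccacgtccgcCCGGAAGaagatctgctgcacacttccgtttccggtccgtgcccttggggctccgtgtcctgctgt
The same 7 letters thus stand before genes that fell 2.87-fold (TIMMDC1) and genes that rose 2.26-fold (NDUFAF4). The motif was in 8 member promoters (19.0%, beside 10.7% of 27305 promoters). Of these 8, 5 belong to members that rose, 2 to members that fell and 1 to a member that did not pass. The 27305 are the first promoter listed for each gene, a choice unlike that made for the members.

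The NRF1 motif was in 7 member promoters (16.7%, beside 6.28% of the same 27305 promoters). Of these 7, 4 belong to members that rose, 1 to a member that fell and 2 to members that did not pass. It is in capitals in the windows of 3 accessory subunits that rose. In NDUFA9 the capitals show the motif as it reads on the other strand. NDUFB4 has 3 matches, of which the first 2 are shown, and the first of them reads as the motif on both strands.
NDUFB4 (chr3:120596162-120596287, plus strand): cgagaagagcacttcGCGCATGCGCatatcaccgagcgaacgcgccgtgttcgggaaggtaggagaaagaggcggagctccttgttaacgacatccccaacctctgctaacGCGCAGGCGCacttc
NDUFA12 (chr12:95003729-95003828, minus strand): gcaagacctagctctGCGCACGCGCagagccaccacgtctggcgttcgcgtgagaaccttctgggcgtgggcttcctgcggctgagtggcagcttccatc
NDUFA9 (chr12:4649019-4649113, plus strand): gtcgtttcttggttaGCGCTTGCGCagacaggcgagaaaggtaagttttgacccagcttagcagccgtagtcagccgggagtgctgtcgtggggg
The YY1 motif was in 8 member promoters (19.0%, beside 3.03% of the same 27305 promoters). Of these 8, 3 belong to members that rose, 1 to a member that fell and 4 to members that did not pass. All 8 matches began 10 to 26 bases after the start, so stretches of 30 bases around it are given for NDUFS7, which fell, and for NDUFA6 and NDUFAF8, which rose.
NDUFS7 (chr19:1383913-1383942, plus strand): aggccgaggccAAGATGGCggtgctgtcag
NDUFA6 (chr22:42090729-42090758, minus strand): gatgctttggcAAGATGGCggggagcggcg
NDUFAF8 (chr17:81239316-81239345, plus strand): aggacggacctAAGATGGCggcctccaggg
Each of the 3 motifs was thus present in members of both directions.

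Transcripts of the factors that give these motifs their names were themselves different between the groups, and were looked up after the members' values were seen. NRF1, a transcription factor of nuclear genes for mitochondrial proteins, fell from 17.0 ± 0.901 to 6.53 ± 1.40 CPM (SD, n = 5 each; log2 fold change -1.37 ± 0.135 SE, adjusted p = 1.61e-06). The NRF1 gene spans 145 kb with its introns, and tested coding genes of 100 to 300 kb had a median log2 fold change of -1.30. GABPA, the DNA-binding chain of the factor also called NRF2, rose from 36.6 ± 2.57 to 69.1 ± 3.19 CPM (log2 fold change 0.92 ± 0.0765 SE, adjusted p = 4.41e-07). Its gene spans 37.9 kb, and the median for 30 to 100 kb was -0.48. YY1 was at 145 ± 8.11 and 125 ± 9.18 CPM with overlapping groups (log2 fold change -0.21, adjusted p = 0.0294), and its call was lost under 8 other settings, with a log2 fold change of -0.01 under upper-quartile scaling and -0.17, -0.22 and -0.21 without knockdown replicate 1, 3 or 5. Of the 7 members with the NRF1 motif 1 fell, and whether factor levels bear on the members was not tested.

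The 9 accessory subunits of the matrix arm had 5 members higher, 1 lower and 3 not passing, with a median log2 fold change of 0.26. NDUFA5 (ENSG00000128609, chr7:123536997-123557904, minus strand), a Q module subunit held on NDUFS3, was at 70.1, 66.9, 69.5, 67.2 and 60.5 CPM in the control and 128, 140.2, 130.4, 140.1 and 123 CPM in the knockdown. All 5 knockdown libraries were well above the control and close to each other. The rise of 1.98-fold (log2 fold change 0.99 ± 0.0770 SE, adjusted p = 2.79e-07) had the smallest p of the members that rose. NDUFA2, a thioredoxin-like subunit of the N module, rose 2.03-fold from 46.7 ± 4.11 to 94.7 ± 22.1 CPM (SD, n = 5 each). NDUFA6, a LYR-motif protein that binds the acyl carrier protein NDUFAB1 to the Q module, rose 1.82-fold from 109 ± 13.8 to 198 ± 36.2 CPM. NDUFA12 (log2 fold change 0.48) and NDUFA9 (0.26), which lie at the N and Q module boundary and in the Q module, also rose without overlap. The call of NDUFA9 was lost without control replicate 5 (log2 fold change 0.19, adjusted p = 0.053) and with no filter beyond 1 count (0.22, adjusted p = 0.1).

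NDUFV3, a small subunit at the NADH-binding tip, was the member of this group that fell, from 36.0 ± 4.93 to 23.1 ± 3.54 CPM (log2 fold change -0.64, adjusted p = 0.000411). Its groups touched, since the lowest control library was at 29.0 CPM and the highest knockdown library at 29.2 CPM. NDUFS4, a subunit often affected in inherited complex I deficiency, had a log2 fold change of -0.26 and did not pass (adjusted p = 0.0694). It passed without control replicate 3 (log2 fold change -0.35), control replicate 5 (-0.34) or knockdown replicate 2 (-0.32). NDUFS6, a zinc-binding N module subunit, was at 81.5 ± 8.31 and 79.9 ± 8.38 CPM and NDUFA7, a Q module subunit, at 21.1 ± 2.08 and 25.01 ± 4.95 CPM, with overlapping groups in both. NDUFA7 passed without knockdown replicate 1 (log2 fold change 0.33) or 2 (0.31), and its exons are shared with another coding gene on the same strand.

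The 9 accessory subunits of the proximal membrane arm, around the mitochondrially encoded ND1 and ND2, had 5 members higher, 1 lower and 3 not passing, with a median log2 fold change of 0.27. The lower one had the largest fall and the smallest p of all members. NDUFA10 (ENSG00000130414, chr2:239892450-240025743, minus strand), a matrix-facing subunit related to nucleoside kinases, was at 159, 161, 151, 159.8 and 144 CPM in the control and 40.0, 58.3, 49.7, 49.2 and 49.9 CPM in the knockdown. Every knockdown library was far below the lowest control. The fall was 3.13-fold (log2 fold change -1.65 ± 0.0994 SE, adjusted p = 5.74e-08). NDUFC2, another subunit of the ND2 module, rose 1.86-fold from 66.6 ± 3.31 to 124 ± 28.5 CPM. The ratio of NDUFC2 to NDUFA10 counts was 0.414 to 0.451 in control libraries and 1.48 to 3.05 in knockdown libraries.

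Other members of the proximal arm that rose were NDUFS5 (log2 fold change 0.53) and NDUFA8 (0.43), both on the intermembrane-space side, NDUFA1 (0.47) and NDUFC1 (0.23), each a small subunit with a membrane helix. NDUFA1 and NDUFC1 had overlapping groups. The call of NDUFC1 was weak: without control replicate 3, 4 or 5 its log2 fold change was 0.17, 0.21 or 0.15, and without knockdown replicate 3, 4 or 5 it was 0.23, 0.21 or 0.23, none of which passed (adjusted p 0.057 to 0.15). In NDUFA8 knockdown replicate 2 was the highest library, at 133 CPM beside 97.4 to 108 CPM in the other 4. NDUFA3 (log2 fold change 0.27), NDUFA11 (0.21) and NDUFA13 (0.01), the last also known as the cell-death regulator GRIM-19, did not pass. NDUFA3 passed without knockdown replicate 1 (log2 fold change 0.36) or 2 (0.34), and NDUFA11 without knockdown replicate 2 (0.29).

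The 12 accessory subunits of the distal membrane arm, around ND4 and ND5 and counted here with the acyl carrier protein NDUFAB1, had 7 members higher, 2 lower and 3 not passing. Their median log2 fold change of 0.46 was the highest of the 4 subunit groups, a description without a test. NDUFB4 (ENSG00000065518, chr3:120596328-120602507, plus strand), an ND4 module subunit, was at 80.5, 81.2, 70.6, 75.6 and 69.5 CPM in the control and 133, 129, 180.3, 184 and 171 CPM in the knockdown. All knockdown libraries were above the control, replicates 1 and 2 least so. It rose 2.11-fold (log2 fold change 1.08 ± 0.117 SE, adjusted p = 3.5e-06). NDUFB11 (ENSG00000147123, chrX:47142071-47145466, minus strand), a subunit whose variants are linked to cardiomyopathy and skin defects, was at 93.1, 82.2, 88.1, 80.7 and 75.6 CPM in the control and 138, 116, 222, 239 and 208 CPM in the knockdown. The same 2 knockdown libraries were the lowest of their group and still above the control. The rise was 2.20-fold (log2 fold change 1.14 ± 0.184 SE, adjusted p = 9.88e-05).

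NDUFB10 (log2 fold change 0.93) and NDUFB7 (0.69), both cysteine-rich subunits facing the intermembrane space, NDUFB9 (0.89), a LYR-motif protein that binds the acyl carrier protein in the ND5 module, and NDUFB2 (0.66) rose without overlap. NDUFAB1, the acyl carrier protein itself, was higher with overlapping groups (0.25, adjusted p = 0.0236), and lost its call without control replicate 3 (log2 fold change 0.21), 4 (0.23) or 5 (0.18). NDUFB1, a small ND4 module subunit, fell 1.68-fold from 37.1 ± 5.23 to 22.1 ± 2.86 CPM (log2 fold change -0.75 ± 0.121 SE, adjusted p = 9.53e-05) without overlap. Its counts against those of NDUFB4 shifted in every knockdown library, the NDUFB4 to NDUFB1 ratio being 1.902 to 2.40 in the control and 5.44 to 9.36 in the knockdown. NDUFB6 was lower with overlapping groups (log2 fold change -0.30, adjusted p = 0.0107), and at -0.10 under upper-quartile scaling it did not pass. NDUFB3, NDUFB5 and NDUFB8 had log2 fold changes of 0.14, 0.14 and 0.06 and did not pass.

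Among the 12 assembly factors 4 were higher, 6 lower and 2 did not pass. Their median log2 fold change was -0.35, and in 9 of them the groups did not overlap. TIMMDC1 (ENSG00000113845, chr3:119498547-119525090, plus strand), a membrane factor for the ND1 module, was at 112, 108, 105, 106 and 100.5 CPM in the control and 34.9, 46.9, 35.8, 32.1 and 35.2 CPM in the knockdown. No knockdown library came near the control range, and replicate 2 was the highest of the knockdown. The fall was 2.87-fold (log2 fold change -1.52 ± 0.103 SE, adjusted p = 1.14e-07). NUBPL (ENSG00000151413, chr14:31489956-31861224, plus strand), which is thought to deliver iron-sulfur clusters to the subunits, was at 23.4, 20.6, 21.8, 21.7 and 21.6 CPM in the control and 6.22, 8.63, 7.97, 9.69 and 10.5 CPM in the knockdown. The control libraries lay close together and all knockdown libraries were far below them, a 2.54-fold fall (log2 fold change -1.35 ± 0.128 SE, adjusted p = 1.25e-06).

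FOXRED1 (ENSG00000110074, chr11:126269024-126278131, plus strand), a flavoprotein needed for the ND4 module, was at 40.7, 42.6, 38.3, 41.5 and 38.3 CPM in the control and 21.9, 28.9, 20.3, 19.99 and 20.8 CPM in the knockdown. The groups did not overlap, with knockdown replicate 2 apart from the other 4, and the fall was 1.80-fold (log2 fold change -0.85 ± 0.108 SE, adjusted p = 1.33e-05). NDUFAF2 (ENSG00000164182, chr5:60945177-61154531, plus strand), a paralog of NDUFA12 whose place NDUFA12 takes late in assembly, was at 11.3, 11.1, 7.58, 10.18 and 9.06 CPM in the control and 4.88, 5.85, 5.21, 5.85 and 6.18 CPM in the knockdown. It fell 1.76-fold without overlap (log2 fold change -0.82 ± 0.129 SE, adjusted p = 8.05e-05) while NDUFA12 rose 1.39-fold. The ratio of NDUFA12 to NDUFAF2 counts was 8.14 to 9.97 in the control and 18.6 to 26.4 in the knockdown. NDUFAF6, which acts early on the Q and ND1 modules, fell from 15.7 ± 1.85 to 10.5 ± 1.35 CPM without overlap.

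Of the 4 factors that rose, NDUFAF4, NDUFAF7 and NDUFAF8 act on the Q module. NDUFAF4 (ENSG00000123545, chr6:96889315-96897891, minus strand), which brings the Q module to the membrane, was at 33.8, 31.6, 28.1, 30.7 and 25.8 CPM in the control and 48.7, 52.3, 79.2, 90.2 and 69.3 CPM in the knockdown. Replicates 1 and 2 were the lowest knockdown libraries and still above every control. Its 2.26-fold rise was the largest of the members (log2 fold change 1.18 ± 0.163 SE, adjusted p = 2.69e-05). Its binding partner NDUFAF3 did not rise: it was at 37.2 ± 2.54 and 31.1 ± 5.07 CPM with a log2 fold change of -0.26 that narrowly missed the threshold (adjusted p = 0.0504). NDUFAF3 passed as lower without control replicate 3, 4 or 5 (log2 fold change -0.30, -0.30 and -0.31) or knockdown replicate 4 (-0.31). Counts of NDUFAF4 over TIMMDC1 went from 0.257 to 0.302 in the control to 1.116 to 2.81 in the knockdown.

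NDUFAF7 (ENSG00000003509, chr2:37231631-37253403, plus strand), a methyltransferase that acts on the Q module, was at 11.7, 13.03, 11.6, 13.8 and 13.3 CPM in the control and 25.2, 22.05, 24.5, 23.5 and 23.6 CPM in the knockdown. Both groups were tight and did not overlap, and the rise was 1.87-fold (log2 fold change 0.90 ± 0.0834 SE, adjusted p = 9.35e-07). NDUFAF5, which hydroxylates an arginine of NDUFS7, fell from 24.4 ± 2.88 to 18.1 ± 2.19 CPM with overlapping groups (log2 fold change -0.43, adjusted p = 0.00295), together with NDUFS7 itself. NDUFAF8, the small protein that stabilises NDUFAF5, rose 1.80-fold from 18.9 ± 1.87 to 34.2 ± 9.51 CPM. NDUFAF1, a scaffold of the assembly complex for the ND2 module known as MCIA, rose 1.41-fold, and its partner TMEM126B was at 31.4 ± 1.01 and 32.3 ± 1.84 CPM and did not pass.

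Genes around the members came from lists written with earlier results of these data known. Of 10 further assembly factors and import helpers 6 were higher and 3 lower, and the median log2 fold change was 0.54. The MCIA partners of NDUFAF1 split: ACAD9, an acyl-CoA dehydrogenase relative that serves assembly, fell from 38.4 ± 0.989 to 14.2 ± 3.33 CPM (log2 fold change -1.43), ECSIT (-1.01) and COA1 (-1.05) fell, and TMEM186 (0.47) rose. TMEM70, also a factor for ATP synthase, had the largest rise of this list, from 17.7 ± 1.91 to 54.6 ± 13.99 CPM (log2 fold change 1.63). The distal-arm factor DMAC1 rose by a log2 fold change of 1.10 and TMEM126A by 0.75. CHCHD4, which oxidises cysteine-rich subunits on import, rose by 0.61, while AIFM1, its import partner, did not pass.

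Iron-sulfur cluster synthesis, which supplies the core subunits, had 6 of 14 genes higher and 4 lower, and their median log2 fold change was 0.12. ISCU, the scaffold on which clusters are built, rose 3.43-fold from 69.6 ± 4.08 to 239 ± 93.7 CPM, with 157 and 122 CPM in knockdown replicates 1 and 2 beside 282 to 339 CPM in the other 3. HSPA9, the chaperone that releases the cluster, rose 2.56-fold. LYRM4, a partner of ISCU in the synthesis complex, fell from 24.7 ± 2.10 to 8.74 ± 1.09 CPM, and the cysteine desulfurase NFS1 did not pass. NFU1, which passes clusters to target proteins, fell by a log2 fold change of 0.43, and ISCA1 and IBA57, which act on the later cluster types, rose by 0.65 and 0.98.

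Of the 7 complex I subunits encoded by the mitochondrial genome 2 were higher and 5 did not pass, and all 7 had overlapping groups. MT-ND1, around which the proximal arm is built, was at 3818, 3159, 4029, 3229.6 and 2963 CPM in the control and 4520.4, 3789, 8042, 9458 and 7977 CPM in the knockdown. Knockdown replicate 2 was within the control range, replicate 1 above it and replicates 3 to 5 far above it (log2 fold change 0.97 ± 0.243 SE, adjusted p = 0.00265). MT-ND3 was higher at a log2 fold change of 0.43 (adjusted p = 0.0339). It no longer passed when any of control replicates 2 to 5 or knockdown replicates 3 to 5 was left out (log2 fold change 0.35 to 0.43). MT-ND2, at a log2 fold change of 0.42, passed without knockdown replicate 1 (0.54) or 2 (0.52), and with both left out MT-ND2, MT-ND4 and MT-ND4L passed at 0.69, 0.39 and 0.39. The removal of both was chosen with the values known, so those calls are a description.

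In all, the 49 members took 0.376 ± 0.0148% of the counts of a control library and 0.463 ± 0.00982% of those of a knockdown library (SD, n = 5 each). The ranges, 0.355% to 0.389% and 0.451% to 0.477%, did not overlap. The members that rose went from 0.172% to 0.289% of counts and those that fell from 0.0807% to 0.0379%, a split that their choice by direction fixes. Of the counts outside the mitochondrial genome the members took 0.424 ± 0.0177% and 0.542 ± 0.0258%. The 7 mitochondrial subunits took 3.26% to 3.86% of control counts and 3.56% to 5.25% of knockdown counts.

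NDUFA4, once counted as a complex I subunit and now known to belong to complex IV, is not a member and rose from 276 ± 22.4 to 449 ± 111 CPM (log2 fold change 0.71, adjusted p = 0.00139). Its relative NDUFA4L2, induced by hypoxia in many cells, was too low to test at 0.157 ± 0.0744 and 0.254 ± 0.0936 CPM.

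Levels between genes are compared per length, as control CPM per kb of the canonical transcript. On that scale the most abundant members were NDUFA13 at 286 ± 23.8 and NDUFS5 at 278 ± 26.9 CPM per kb, followed by NDUFB9, NDUFB2 and NDUFA11 at 233, 218 and 212 CPM per kb. NDUFA13 and NDUFS5 differed by less than their SD over the 5 control libraries, as did NDUFB9 from NDUFB2 and NDUFB2 from NDUFA11. The lowest were assembly factors and 1 subunit: NDUFAF5 at 4.48, NDUFAF7 at 5.82, NDUFV3 at 6.29, NUBPL at 7.18 and NDUFAF6 at 8.77 CPM per kb, of which NDUFAF7 and NDUFV3 differed by less than the SD of NDUFV3. Among the core subunits NDUFS1 was at 22.3 CPM per kb, with a canonical transcript of 11660 bases, and NDUFV1 was at 142 CPM per kb. The order depends on the transcript used, since NDUFB9 was at rank 3 by the canonical transcript and at rank 38 by merged exons. Across the 49 members the Spearman correlation of this level with the log2 fold change was 0.25.

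Gene span, introns included, went with the fold changes. Over 14777 tested coding genes the Spearman correlation of span with the log2 fold change was -0.60, and over the 49 members it was -0.42, or -0.50 with the span of the canonical transcript. These are correlations across genes, which are not independent replicates. The median span of the members was 14.6 kb. The 16 members of 3 to 10 kb had a median log2 fold change of 0.50, with 9 higher and 2 lower, beside 0.71 for coding genes of that span. The 17 members of 10 to 30 kb had 7 higher and 3 lower, with a median of 0.21 beside 0.27. The 8 members of 30 to 100 kb went against the coding genes of that span in sign, with 5 higher and 3 lower and a median of 0.24 beside -0.48. Of the 5 that rose, NDUFB2, NDUFB9 and NDUFC1 had canonical transcripts spanning only 9.94, 10.9 and 12.5 kb. Those of NDUFA9 and NDUFV2 spanned 45.2 and 31.6 kb. In the 5 members of 100 to 300 kb 1 was higher and 3 lower, with a median of -0.58 beside -1.30, and NUBPL, the 1 member above that at 371 kb, had -1.35 beside -2.06. Bands with under 20 genes are thin.

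**Figure D4:**
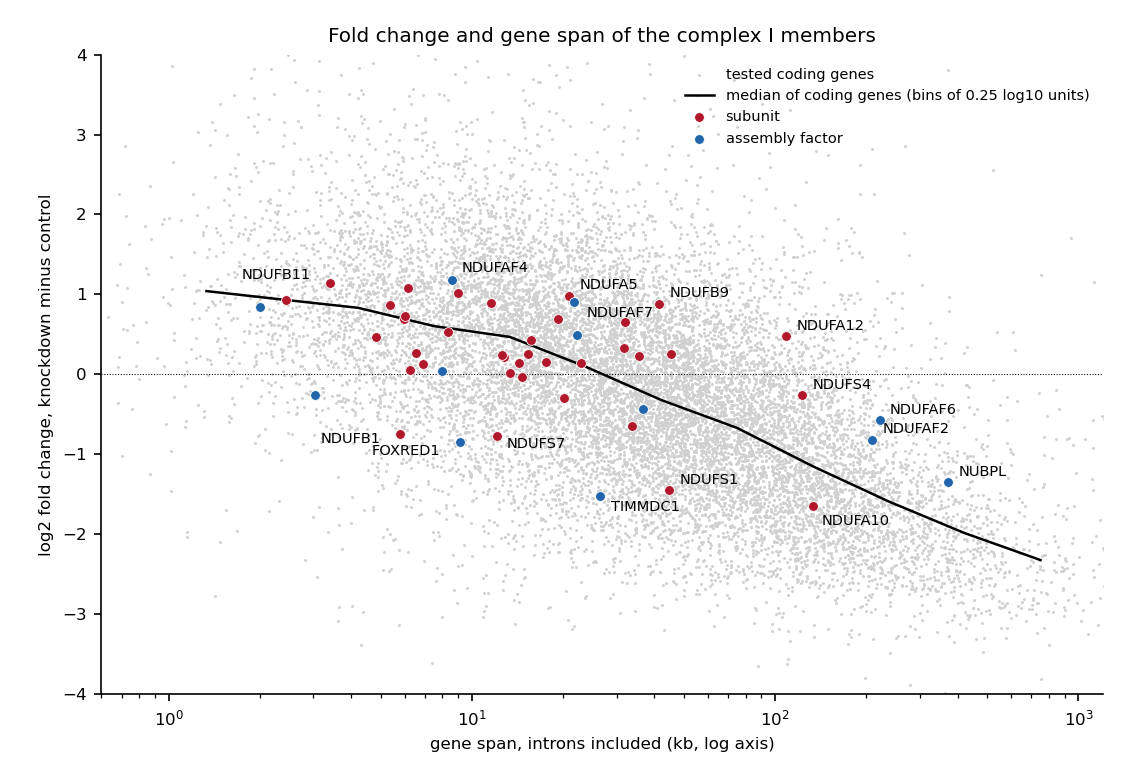
Log2 fold change (y axis) against gene span (x axis, kb, log scale) for the 49 members, subunits in red and assembly factors in blue, over tested coding genes in grey with their running median as a line. The axes stop at 4 in either direction and near 1000 kb, and genes beyond are not drawn. TIMMDC1, NDUFB1, FOXRED1, NDUFS7 and NDUFS1 lie well below the line and NDUFA12 and NDUFB9 well above it.

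After removal of a loess trend of fold change on span, fitted over tested coding genes, the median of the members was -0.03 by gene span, with members far to either side. By canonical span the middle member, NDUFS5, was at 0.003, so the sign depends on the span used. The median by gene span was -0.16 for members of 3 to 10 kb, 0.45 for 30 to 100 kb and 0.81 for 100 to 300 kb. With the trend on canonical span removed instead, the middle members of the 30 to 100 kb band were NDUFAF5 at -0.11 and NDUFB2 at 0.21. The middle member of the 100 to 300 kb band was then NDUFA12 at 0.71. Among the accessory subunits the gene-span median was 0.48 for the matrix arm, -0.18 for the proximal and -0.01 for the distal membrane arm. By canonical span the middle matrix-arm member, NDUFA6, was at 0.19 and the middle proximal-arm member, NDUFA1, at -0.24. The middle distal-arm members, NDUFB10 and NDUFB7, were then at 0.03 and 0.06. The gene-span median was -0.08 for the core subunits and 0.11 for the assembly factors. By canonical span the middle assembly factors, NDUFAF8 and NDUFAF5, were both at -0.11, and the core median was lower than by gene span. Before removal the distal arm was at 0.46 and the assembly factors at -0.35. By canonical span NDUFA2 moved from 0.48 to 0.11, NDUFB2 from 0.80 to 0.21 and NDUFC1 from 0.44 to -0.12. NDUFA9 moved from 0.63 to 0.73 and NDUFV2 from 0.47 to 0.55. Relative to genes of its span TIMMDC1 was at a log2 difference of -1.505, NDUFB1 at -1.44, FOXRED1 at -1.38, NDUFS7 at -1.19, NDUFAF3 at -1.15 and NDUFS1 at -1.08. NDUFA10, at -1.65 before, was at -0.51 by its gene span of 133 kb and at -0.88 by its canonical span of 68.0 kb. NUBPL and NDUFAF2, which fell, lay 0.50 and 0.65 above genes of their length. NDUFA12 lay 1.45 above the trend by its gene span of 108 kb but 0.71 above by its canonical span of 32.4 kb. NDUFB9 likewise lay 1.199 or 0.47 above, and NDUFAF6 was at 0.93 by gene span and -0.31 by canonical span. NDUFAF4, NDUFA5 and NDUFAF7 lay 0.62, 0.85 and 0.79 above by gene span and 0.67, 0.93 and 0.74 above by canonical span. Outside the members, ACAD9 was at -1.07 and ECSIT at -1.08 by gene span. COA1, which also fell, was at 0.02, and LYRM4 was at -0.24. TMEM186 was at 0.22 by gene span and -0.43 by canonical span.

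The knockdown libraries differed among themselves in a repeated way. In 19 of the 24 members that rose (79.2%), knockdown replicates 1 and 2 were the lowest 2 of the 5, as they were in 55.5% of all tested genes called higher. In 9 of the 12 members that fell (75%), knockdown replicate 2 was the highest, as in 73.8% of all tested genes called lower. The median over members of the log2 ratio to the control mean was 0.01 in knockdown replicate 1 and 0.11 in replicate 2, beside 0.26, 0.34 and 0.27 in replicates 3, 4 and 5. Genes of the mitochondrial genome took 11.5% and 10.9% of counts in replicates 1 and 2 and 15.96% to 17.5% in replicates 3 to 5. With these genes removed before the fit, 48 of the 49 members had the same call, NDUFAF3 passed as lower, and the largest move of a member's log2 fold change was -0.00176.

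Counting could mix some members with their neighbours or copies. The strand setting of the counting is not given in the sources used here, and 18 members share at least 10% of their exon bases with a gene on either strand, among them NDUFS1, NDUFS7 and TIMMDC1, which share them on the other strand mostly or wholly; 22 members share none. On the same strand 7 share that much with a coding gene (NDUFA7, NDUFA9, NDUFA13, NDUFB8, NDUFC1, NDUFC2 and NDUFS3), and their values are uncertain. Of 61 annotated pseudogenes named after members 1 was high enough to test, NDUFV2P1, which rose (log2 fold change 0.54) at 3.61% of the counts of NDUFV2. NDUFA5 and NDUFB4 have 12 pseudogenes each, which together held 0.0207% and 0.0960% of the counts of their parent genes. The antisense RNA NDUFV2-AS1 rose by a log2 fold change of 1.11. NDUFA6-DT, the divergent transcript beside NDUFA6, fell from 5.92 ± 0.550 to 3.34 ± 0.545 CPM (log2 fold change -0.82, adjusted p = 0.00011) while NDUFA6 rose. These neighbours were looked up after the members' values were seen.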

How the data were processed

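RNA of 5 control and 5 knockdown libraries was sequenced, and the sample titles gave each library's group and replicate number. The deposited values are whole-number read counts by gene, without normalisation, and 0 columns were left unmapped. Per the submitters' processing notes the authors used Trim Galore 0.65, STAR 2.7.0 on GRCh38 and HTSeq. The labels' protocols describe a stranded library kit. Which HTSeq version ran is not given in the sources used here, nor how it treated strand. The series' design text names GENCODE release 38, but of the 78932 identifiers 17451 are not in release 44, from which names, positions and spans were taken. Those held 0.25% to 0.408% of the counts and stayed in the tests. No gene is named CLIPPER, and that RNA was not analysed here.

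Counts were filtered with filterByExpr, scaled by the trimmed mean of M-values, and then compared between the groups with edgeR 4.0.16 (robust quasi-likelihood F test, R 4.3.3, 21033 genes). The biological coefficient of variation common to all genes was 19.2%. The standard error of a log2 fold change was taken as its size over the root of F. All libraries of a group differed beyond sampling noise (chi-square over degrees of freedom at least 4.47). On simulated counts for 20627 genes the same test recovered 29.9% of 1.5-fold, 85.1% of 2-fold and 98.5% of 4-fold changes. Only 67, 67 and 66 genes were changed at these folds, and 8 of 150 calls were false. In the data 79.7% of genes passed, which makes the adjusted threshold less strict. The simulated shares therefore do not give the power of the test in these data. Span trends were loess fits (span 0.5).

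The members, the gene lists and the settings were chosen with earlier results of these data known. Values in every library are given for the core subunits and, among members past the threshold without overlap, for those with the smallest p (6 that rose and 6 that fell) and the largest fold change (3 that rose and 3 that fell). Some genes that this rule or the lists take are not reported here. Other members are given by group, and genes outside the members come from the lists unless said otherwise. The summed level of other cell types' markers, control against knockdown, was 1161 to 1273 against 789 to 950 CPM for fibroblasts and stroma (4 of 6 lower), 1146 to 2388 against 474 to 871 for smooth muscle (4 of 4 lower), 29.1 to 49.7 against 8.03 to 15.9 for endothelium (2 of 4 lower, PECAM1 and CDH5 under 1 CPM), 3.83 to 5.04 against 1.61 to 3.32 for epicardium (2 of 3 lower), 5.44 to 6.93 against 10.8 to 19.8 for endoderm (1 of 5 higher) and 0.942 to 1.70 against 3.78 to 5.91 for pluripotent cells (2 of 5 higher). No marker was at 0 in every library. On average over the libraries WT1 and TCF21 of epicardium were under 1 CPM. The same held for AFP, TTR, FOXA2 and SOX17 of endoderm, all but APOA1. It also held for POU5F1, NANOG, DPPA4 and TDGF1 of pluripotent cells, all but LIN28A. Promoter sequences came from RefSeq. Other settings tried were DESeq2 1.42.0 and its size factors, upper-quartile factors, limma-voom (limma 3.58.1), other filters, dispersions without robust fitting, libraries left out, a block on the replicate number, and removal of genes of the mitochondrial genome.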

Additional observations from a re-analysis of the deposited data

Results flagged for a closer look

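In 5 members 1 library stood apart from the other 4 of its group, by a gap to its nearest neighbour that exceeded Dixon's critical value of 0.71 of the group's range. In each case it was knockdown replicate 2, with the highest value: TIMMDC1 at 46.9 CPM beside 32.1 to 35.8 in the other 4, NDUFS7 at 56.0 beside 35.4 to 39.9, FOXRED1 at 28.9 beside 19.99 to 21.9, NDUFV3 at 29.2 beside 20.3 to 22.5, and NDUFAF5 at 21.96 beside 16.7 to 17.8. All 5 are members that fell, and replicate 2 lay nearest to the control in each. Over the 98 groups examined chance flags about 1 in 20. The 5 kept their calls without that library.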

How the results depend on the processing

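Of 49 members 34 kept their call under all 20 settings tried (21 higher, 11 lower and 2 not passing), and no setting reversed a member that had passed. The median log2 fold change of the members was 0.45 under upper-quartile factors and -0.032 once the trend on gene span was subtracted, a change of sign. With the trend on canonical span subtracted the middle member was at 0.003, so the change of sign rests on the span used. With genes of the mitochondrial genome removed, the members' share of counts was 0.542% in the knockdown and 0.424% in the control, because the total is smaller. Leaving out 1 library at a time gave 21 to 27 members higher, 12 to 14 lower and a median of 0.18 to 0.30. DESeq2 gave 25 higher and 12 lower, and no filter beyond 1 count 21 and 13, NDUFA9, NDUFAB1 and NDUFC1 losing their calls. Replicate numbers did not pair the samples: same-number correlations of deviations ran from -0.17 to 0.22, and 2 of the 5 knockdown libraries correlated best with their own number. With the replicate number as a block 22 members were higher and 12 lower, NDUFAB1 (adjusted p = 0.054) and NDUFC1 (0.065) no longer passing. Counting error is small at these depths, and the spread between 5 libraries limits the smallest difference that passes.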
